A study of Mus musculus with 10 samples.

Results

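Actn1, Fscn1, Csrp2 and Carmil3 encode proteins that act on actin filaments, and in activated mouse B cells their RNA levels differed, in opposite directions, between a second and a first phase of culture. Actn1 averaged 46 TPM in the 4 libraries of Phase II and 5.94 TPM in the 4 libraries of Phase I, whereas Fscn1, Csrp2 and Carmil3 were all higher in Phase I. The 4 genes were picked from 6610 gene symbols because of their levels in these same libraries, so their levels and changes are given as a description, with standard errors and without tests. They occupy 7 RefSeq transcript rows of the table, and all 4 were among the 4427 genes that passed a filter of at least 1 TPM in at least 2 libraries. TPM is a relative transcript abundance, corrected for transcript length, that adds up to one fixed total per library.

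Actin is assembled into filaments that are nucleated, elongated, capped, cut, bundled and tied to the membrane by distinct families of proteins. Alpha-actinins are antiparallel crosslinkers that also join filaments to integrin adhesions and to vinculin. Fascins pack filaments into the tight parallel bundles of filopodia, CRP proteins are LIM domain adaptors that bind alpha-actinin and actin, and CARMIL proteins bind capping protein and weaken its hold on the growing filament end. In B cells, actin remodelling accompanies antigen receptor signalling, spreading on antigen-bearing surfaces and cell division.

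The libraries came from splenic B cells of C57BL/6 mice, an inbred strain, with 5 groups of 2 libraries and no genetic alteration named in the labels. Phase II cells started as divided Phase I cells, spent a further 48 h with 0.12 µg/ml antibody to CD40, a co-stimulatory receptor, and were sorted into those that divided again (div12_48_d) and those that did not (div12_48_u). Phase I cells had been pulsed with antibodies to IgM, the B cell antigen receptor, and to CD40 for 48 h, and were taken as divided (div12) or undivided (div0) cells. Resting cells (naive) received no stimulus. Each Phase I replicate was an independent pool of 4 to 5 mice per the labels, while the source of the Phase II replicates is not given in the sources used here. RNA was taken from 500000 Phase II cells and from 1000000 Phase I cells. Phase, stimulus, time in culture and cell input therefore cannot be told apart. B cell markers were present in all 10 libraries: Cd79a, a subunit of the antigen receptor complex, measured 6235 to 10896 TPM and Pax5, a transcription factor of B cells, measured 421 to 1038 TPM. The sequencing depth is unknown.

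Each gene has 1 place on the GRCm38.p6 assembly, and 3 of the 4 have a RefSeq promoter, shown here because the genes split into one that was high in Phase II and others that were high in Phase I. Carmil3 had 2 promoter entries, and only the one with the lower start was printed and searched. Actn1 lies on chr12:80167542-80260420, minus strand, and overlaps 3 predicted gene models, Gm47765, Gm47766 and Gm47767, of which 2 are antisense, with the use of strand in quantification not given in the sources used here. Fscn1 lies on chr5:142960355-142973189, Csrp2 on chr10:110920176-110939514 and Carmil3 on chr14:55490651-55508272, all on the plus strand with no overlapping annotated gene. The 250 bases before the start set by the RefSeq promoter entry are printed 5′ to 3′ on the coding strand, from chr12:80260364-80260613 (minus strand), chr5:142960105-142960354 (plus strand) and chr14:55490819-55491068 (plus strand). The Fscn1 window ends just before its gene span given above, the Actn1 window reaches into its span, and the Carmil3 window lies inside its span. Positions below are counted from the start of the promoter entry. Capitals mark the matches to TATAAA, the TATA box; TGACGTCA, the cyclic AMP response element; CCAAT; and GGGCGG, the GC box, on either strand.
Actn1: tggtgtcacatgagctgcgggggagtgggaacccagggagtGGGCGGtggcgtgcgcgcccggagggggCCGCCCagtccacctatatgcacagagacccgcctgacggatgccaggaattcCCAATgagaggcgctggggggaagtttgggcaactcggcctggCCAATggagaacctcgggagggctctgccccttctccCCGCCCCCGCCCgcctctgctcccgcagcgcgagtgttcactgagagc
Fscn1: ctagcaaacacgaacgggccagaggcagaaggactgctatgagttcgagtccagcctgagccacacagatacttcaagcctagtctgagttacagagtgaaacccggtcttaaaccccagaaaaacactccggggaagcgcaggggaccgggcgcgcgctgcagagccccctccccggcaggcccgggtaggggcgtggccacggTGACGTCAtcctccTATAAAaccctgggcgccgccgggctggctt
Carmil3: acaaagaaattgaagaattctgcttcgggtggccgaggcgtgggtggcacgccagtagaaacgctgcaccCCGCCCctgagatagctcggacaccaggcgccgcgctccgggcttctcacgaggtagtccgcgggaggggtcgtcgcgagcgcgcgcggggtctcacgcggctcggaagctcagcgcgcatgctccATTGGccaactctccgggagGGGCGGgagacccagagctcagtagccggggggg
Fscn1 was the single one of these 3 promoters with TATAAA, at position -31 from the start, and with TGACGTCA, at position -45. Among 27025 promoters, 1 per gene and of the same length, 13.0% held TATAAA and 1.62% held TGACGTCA. Actn1 held CCAAT at -128 and -85 and GGGCGG at -209, -181, -48 and -42, the last 3 on the opposite strand, where the last pair of matches abut. Carmil3 held CCAAT at -54 and GGGCGG at -180, both on the opposite strand, and GGGCGG at -34 on the coding strand. CCAAT was found in 34.5% and GGGCGG in 32.9% of all promoters. No match to the CArG box, the motif of serum response factor, or to the kappaB motif, which occur in 1.40% and 3.75% of promoters, lay in these 3 windows. The G and C content was 68.4% for Actn1, 62.4% for Fscn1 and 68.0% for Carmil3, and a motif match describes the letters and shows no binding.

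**Figure D1:**
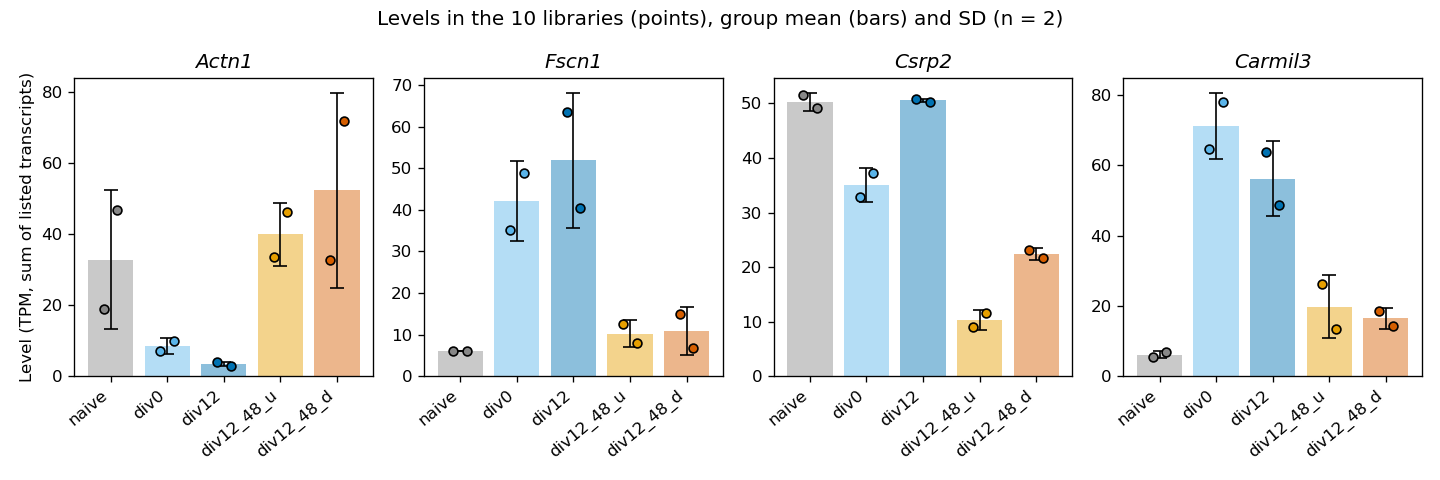
TPM of Actn1, Fscn1, Csrp2 and Carmil3 in each of the 10 libraries by group, with points for libraries, bars for group means and whiskers for the SD (n = 2). Actn1 lies between 32.8 and 71.7 TPM in Phase II and between 2.94 and 10 TPM in Phase I, and the other 3 genes lie lower in Phase II than in Phase I.

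Actn1, a non-muscle alpha-actinin, was the one of the 4 that was high in Phase II. It measured 32.8 and 71.7 TPM in div12_48_d and 33.5 and 46.2 TPM in div12_48_u, against 3.89 and 2.94 TPM in div12 and 6.93 and 10 TPM in div0. All 4 Phase II libraries stood above all 4 Phase I libraries, with at least 32.8 TPM against at most 10 TPM. Over all genes tested, 14.6% were higher in every Phase II than in every Phase I library and 5.04% were lower, 19.7% together. The group means were 52.2 ± 27.5 TPM in div12_48_d, 39.8 ± 8.98 TPM in div12_48_u, 3.41 ± 0.67 TPM in div12 and 8.46 ± 2.18 TPM in div0 (SD, n = 2 each).

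On the log2(TPM + 1) scale, which understates changes of low genes, Actn1 differed by 3.50 ± 0.46 (SE) between div12_48_d and div12 and by 3.20 ± 0.46 between div12_48_u and div12. These were ranks 5 and 6 from the highest of the 4427 genes in those comparisons. Against div0, div12_48_u was higher by 2.11 ± 0.46. Within Phase I, Actn1 was lower in div12 than in div0, with a change of -1.09 ± 0.46 and no overlap of the libraries, as were 40.3% of all genes. Within Phase II the libraries of div12_48_d and div12_48_u overlapped, and their difference of 0.30 ± 0.46 ran from -0.26 without div12_48_d replicate 2 to 0.85 without div12_48_d replicate 1.

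Resting cells held Actn1 at 18.9 and 46.6 TPM, a range that overlaps Phase II and lies above Phase I. The change against naive was -1.72 ± 0.46 for div0 and -2.81 ± 0.46 for div12, both without overlap, as for 55.1% and 56.0% of all genes that were lower there. It depended on the resting library used: for div0 it was -2.35 without naive replicate 1 and -1.09 without naive replicate 2, and for div12 it was -3.44 and -2.18. The 2 resting libraries also differed in macrophage and monocyte markers, whose summed level was 635 TPM in naive replicate 1, the one with less Actn1, and 2082 TPM in naive replicate 2. Csrp2, by contrast, measured 51.5 and 49.1 TPM in those libraries.

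The summed level of the same macrophage and monocyte list was also higher in Phase II, though not that of every member. Its 8 measured members of 10 summed to 229 and 300 TPM in div12_48_d and 174 and 168 TPM in div12_48_u, against 91.1 and 103 TPM in div12 and 84.3 and 158 TPM in div0. The difference was mainly in Adgre1, which encodes F4/80 and measured 139 and 204 TPM in div12_48_d and 108 and 103 TPM in div12_48_u, against 29.3 and 43.5 TPM in div12 and 34.4 and 30.0 TPM in div0. Cd68, a lysosomal protein of macrophages, was also highest among cultured libraries in div12_48_d, at 87.4 and 93.1 TPM, and measured 63.5 and 55 TPM in div12_48_u, against 50.4 and 56.1 TPM in div12 and 41.6 and 46.0 TPM in div0. C1qb, a complement gene of tissue macrophages, was at 2.54 and 2.40 TPM in div12_48_d and at most 0.36 TPM in the other cultured libraries, while its partner C1qa was listed at 0 in all 8. Csf1r, the receptor that defines the lineage, was at most 0.16 TPM in Phase II, against 0.53 and 0.08 TPM in div12 and 0.19 and 1.98 TPM in div0. Lyz2, of the same list, had lower group means in Phase II, with overlapping libraries. It measured 0 and 0.34 TPM in div12_48_d and 1.64 and 9.34 TPM in div12_48_u, against 9.87 and 2.78 TPM in div12 and 7.85 and 78.4 TPM in div0. Platelet markers, 3 of 6 listed, summed to 24.3 and 18.1 TPM in div12_48_d and 42 and 29 TPM in div12_48_u, against 34.8 and 32.2 TPM in div12 and 49.5 and 45.6 TPM in div0. Itgb3, the beta 3 integrin, made up most of these sums. Itga2b, its platelet partner, went the other way, at 2.01 and 2.14 TPM in div12_48_d and 2.17 and 2.74 TPM in div12_48_u, against 1.51 and 1.21 TPM in div12 and 1.15 and 1.17 TPM in div0. Every Phase II library was thus above every Phase I library for Itga2b, as for Actn1 and for 14.6% of all genes. Pf4, the remaining listed platelet marker, was at 0 in every Phase II library, against 0.56 and 0.49 TPM in div12 and 0.36 and 0 TPM in div0. The part of these cells in the Actn1 levels was not tested. In bulk RNA, fewer cells of a type and less RNA per cell cannot be told apart.

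Actn1 was listed as 2 RefSeq transcripts, NM_134156 and NM_001346669. NM_001346669 gave 3.89% to 17.0% of the Actn1 sum in Phase II and 19.4% to 29.6% in Phase I, with 17.3% and 24.8% in resting cells. NM_134156, a model of 21 exons and 3734 exonic bases, measured 28.2 and 68.9 TPM in div12_48_d and 29.9 and 38.3 TPM in div12_48_u, against 2.74 and 2.16 TPM in div12 and 5.58 and 7.51 TPM in div0. NM_001346669 was also higher in every Phase II library, at 2.79 to 7.84 TPM, than in every Phase I library, at 0.777 to 2.50 TPM. How 50 bp single-end reads were divided between these transcripts limits what the shares show, and no test was made on them.

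**Figure D2:**
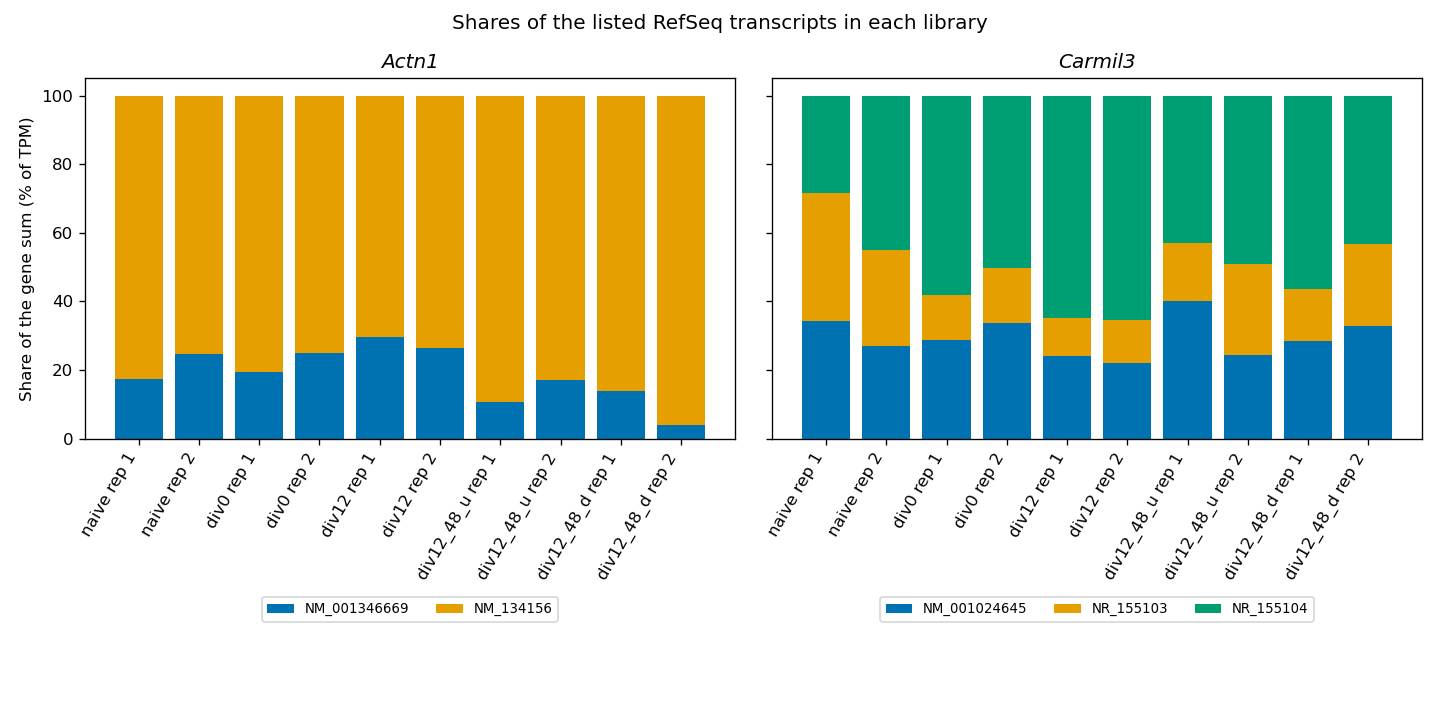
Share of the summed TPM of Actn1 and of Carmil3 assigned to each RefSeq transcript, in percent, for each of the 10 libraries. NM_001346669 of Actn1 takes 3.89% to 17.0% in Phase II and 19.4% to 29.6% in Phase I, and NR_155104 of Carmil3 takes 43.1% to 56.4% in Phase II and 50.2% to 65.4% in Phase I.

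Fscn1 encodes fascin, the bundling protein of filopodia and a gene that mature dendritic cells express strongly. Its level was 14.9 and 6.79 TPM in div12_48_d and 12.5 and 7.91 TPM in div12_48_u, against 63.4 and 40.4 TPM in div12 and 35.2 and 48.9 TPM in div0. Every Phase II library was below every Phase I library, and the mean over 4 libraries was 4.45-fold higher in Phase I. Replicate 1 was the higher library in both Phase II groups. The changes were -2.21 ± 0.37 for div12_48_d against div12, -2.23 ± 0.37 for div12_48_u against div12 and -1.95 ± 0.37 for div12_48_u against div0, placing Fscn1 at ranks 4, 8 and 6 from the lowest of 4427 genes.

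Activation moved Fscn1 the other way. Resting cells held 6.02 and 5.96 TPM, below all 8 cultured libraries. Div0 was higher than naive by 2.6 ± 0.37, a 6.08-fold difference on the TPM + 1 scale, and div12 by 2.88 ± 0.37, or 7.38-fold. Of all genes, 24.3% and 24.4% were higher in every library of div0 and of div12 than in both resting libraries. Fscn1 in div12_48_d against div12_48_u differed by 0.02 ± 0.37 and in div12 against div0 by 0.28 ± 0.37, with overlapping libraries in both pairs. The first was -0.49 without div12_48_d replicate 1 and 0.54 without div12_48_d replicate 2, and the second was -0.04 without div12 replicate 1 and 0.60 without div12 replicate 2, so neither had a stable sign.

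Because dendritic cells express Fscn1, their markers were summed in the same libraries. The 6 listed markers of 8 summed to 41.3 and 31.8 TPM in div12_48_d and 44.9 and 32.4 TPM in div12_48_u, against 81.6 and 106 TPM in div12 and 42.2 and 44.6 TPM in div0. The higher sum in div12 was mostly Flt3, a cytokine receptor, at 73.2 and 96.1 TPM. Itgax, which encodes CD11c and marks dendritic cells, was at most 1.63 TPM in the cultured libraries, and Cd209a was below 1 TPM in each of them. Xcr1, of the same list, stayed at 5.86 to 8.08 TPM in the cultured libraries, against 9.95 and 10.1 TPM in naive. Siglech measured 0.31 to 3.73 TPM in culture, against 5.67 and 15.9 TPM in naive, and Batf3 at most 1.61 TPM, against 2.90 and 8.96 TPM. In resting libraries, where Fscn1 was lowest, the list summed to 54.5 and 103 TPM. The part of dendritic cells in the Fscn1 levels was not tested.

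Carmil3, a capping protein regulator, followed a course close to that of Fscn1. It measured 18.5 and 14.3 TPM in div12_48_d and 26.1 and 13.5 TPM in div12_48_u, against 63.7 and 48.6 TPM in div12 and 64.5 and 77.9 TPM in div0. Phase II libraries reached at most 26.1 TPM while Phase I libraries held at least 48.6 TPM, a 3.51-fold difference of the means over 4 libraries, higher in Phase I. The changes were -1.71 ± 0.29 for div12_48_d against div12, -1.51 ± 0.29 for div12_48_u against div12 and -1.86 ± 0.29 for div12_48_u against div0.

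Resting cells held Carmil3 at 5.37 and 6.79 TPM, below all 8 cultured libraries. Div0 exceeded naive by 3.35 ± 0.29, or 10.2-fold on the TPM + 1 scale, rank 9 from the highest of the 4427 genes, and div12 exceeded naive by 3.01 ± 0.29, or 8.04-fold. Every Phase II library held at least 13.5 TPM of Carmil3, above both resting libraries, while the lowest Phase II library for Fscn1 held 6.79 TPM against 6.02 TPM in the higher resting library. The division contrast of Carmil3 in Phase II, div12_48_d against div12_48_u, was -0.20 ± 0.29, with overlap. That in Phase I, div12 against div0, was -0.34 ± 0.29, without overlap, as for 40.3% of all genes that were lower there. The first was -0.65 without div12_48_u replicate 2 and 0.26 without div12_48_u replicate 1, so its sign rested on 1 library, and the second was -0.08 with the most abundant transcript alone.

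The Carmil3 RNA was spread over 3 RefSeq rows, and the coding one was the largest in none of the 10 libraries. NM_001024645, the coding transcript with 40 exons, gave 24.3% to 40.2% of the sum in Phase II, 22.1% to 33.6% in Phase I and 26.9% and 34.2% in resting cells. NR_155104, which GENCODE M21 annotates as a retained intron transcript of 39 exons, gave 56.4% and 43.4% in div12_48_d and 43.1% and 49.1% in div12_48_u, against 64.6% and 65.4% in div12 and 58.1% and 50.2% in div0. It gave 28.5% and 44.9% in resting cells, so the lowest share was in a naive library and the highest ones were in div12. The intron it keeps is intron 29 of the coding transcript, 236 bases at chr14:55501594-55501829 (GRCm38.p6). The third row, NR_155103, gave 11.3% to 37.3%.

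The coding row taken alone kept the split between phases for Carmil3, narrowly. NM_001024645 measured 5.29 and 4.70 TPM in div12_48_d and 10.5 and 3.28 TPM in div12_48_u, against 15.3 and 10.7 TPM in div12 and 18.6 and 26.2 TPM in div0, with 1.84 and 1.83 TPM in resting cells. The highest Phase II library, div12_48_u replicate 1, reached 10.5 TPM, and the lowest Phase I library, div12 replicate 2, was at 10.7 TPM.

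Csrp2, which encodes the LIM domain protein CRP2 of smooth muscle and other cells, differed from the other 3 genes in its resting level and within Phase II. It measured 23.1 and 21.6 TPM in div12_48_d and 9.03 and 11.6 TPM in div12_48_u, against 50.8 and 50.3 TPM in div12 and 32.9 and 37.3 TPM in div0. Phase II lay below Phase I in every library, with 23.1 TPM as the highest and 32.9 TPM as the lowest value, and the mean was 2.62-fold higher in Phase I. The log2 change was -1.14 ± 0.14 for div12_48_d against div12, -2.20 ± 0.14 for div12_48_u against div12 and -1.68 ± 0.14 for div12_48_u against div0. The SDs of Csrp2 were 0.41 to 3.12 TPM over the 5 groups.

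Divided cells held more Csrp2 than undivided cells in both phases. In Phase II div12_48_d exceeded div12_48_u by 1.05 ± 0.14, a 2.08-fold difference without overlap, as for 28.6% of all genes, and it stayed between 0.89 and 1.22 when single libraries were left out. In Phase I div12 exceeded div0 by 0.52 ± 0.14, also without overlap, as for 25.6% of all genes. The difference of those division contrasts was 0.54 ± 0.19 for Csrp2, 1.39 ± 0.65 for Actn1, -0.26 ± 0.52 for Fscn1 and 0.15 ± 0.41 for Carmil3. For that difference limma called 0% of the 4427 genes at an adjusted p under 0.05 (Benjamini-Hochberg), and 438 had an unadjusted p under 0.05.

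Resting cells held Csrp2 at 51.5 and 49.1 TPM, and div12 differed from them by 0.01 ± 0.14, with overlap. Div0 differed from them by -0.51 ± 0.14, without overlap, as for 55.1% of all genes that were lower there. With the libraries scaled by the median ratio over genes, these changes of Csrp2 became 0.28 and -0.33, because that scaling moved the median of all genes by 0.26 in div12 against naive and by 0.17 in div0 against naive. It moved the median by -0.15 in div12_48_u against div12, by -0.09 in div12_48_d against div12 and by -0.08 in div12_48_u against div0. Stroma, endothelium and smooth muscle markers, 9 of 10 listed, summed to 274 and 310 TPM in div12_48_d and 345 and 301 TPM in div12_48_u, against 337 and 356 TPM in div12, 353 and 327 TPM in div0 and 507 and 446 TPM in naive. Pecam1 and Acta2 made up most of these sums, and Col3a1 was listed at 0 in all 10 libraries, naive included. Their part in the Csrp2 levels was not tested.

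**Figure D3:**
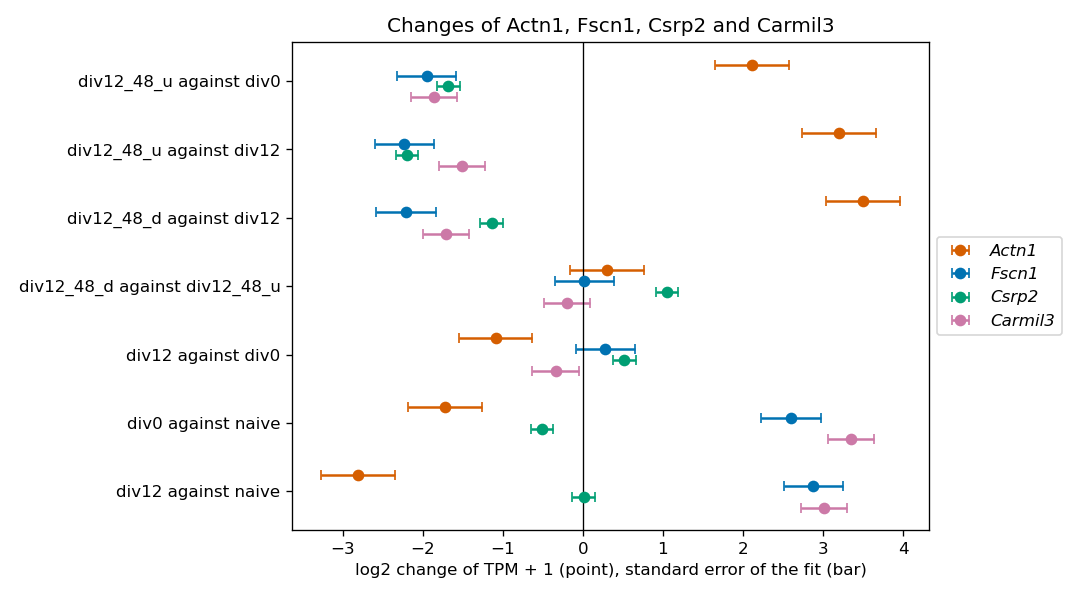
Log2 change of Actn1, Fscn1, Csrp2 and Carmil3 on the log2(TPM + 1) scale in the comparisons between groups, with points for estimates and bars for standard errors. Actn1 is at 2.11 to 3.50 in the 3 comparisons of Phase II with Phase I, and Fscn1, Csrp2 and Carmil3 are at -2.23 to -1.14.

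Across the 10 libraries the 4 genes formed no single pattern. Fscn1 and Carmil3 ran closest, with a Pearson r of 0.949 of log2(TPM + 1), and Actn1 ran against Fscn1 at -0.877 and against Carmil3 at -0.737. Csrp2 stood apart, at 0.344 with Fscn1, 0.1 with Carmil3 and -0.582 with Actn1. These values describe 10 libraries in 5 groups that share processing, and they carry no test. In order of group means Fscn1 ran div12, div0, div12_48_d, div12_48_u and naive, where div12 with div0 and div12_48_d with div12_48_u overlapped. Carmil3 ran div0, div12, div12_48_u, div12_48_d and naive, with overlap only between the Phase II groups. Csrp2 ran div12, naive, div0, div12_48_d and div12_48_u, where div12 and naive overlapped, and Actn1 ran div12_48_d, div12_48_u, naive, div0 and div12, where the first 3 overlapped.

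Among 3474 genes that averaged 10 TPM or more in any group, those whose levels ran most like Actn1 were Faah (r = 0.976), Pik3cd (0.969), Ern1 (0.968), Sh2b2 (0.961) and Fam53b (0.96). For Fscn1 they were Acsl3 (0.986), Gypc (0.969), Cenpj (0.965), Pde4dip (0.957) and Sema7a (0.957). Sema7a (0.974), Gypc (0.966) and Pde4dip (0.961) were also among the 5 nearest to Carmil3, beside Grap (0.967) and Tmem173 (0.961). Among those nearest to Csrp2 were Sumo3 (0.95), Coro1a (0.936), Tuba1a (0.936) and Sept6 (0.928). Coro1a, which encodes the actin-binding protein coronin 1A, had means of 3377 TPM in div12_48_d and 3017 TPM in div12_48_u, against 4003 TPM in div12 and 3768 TPM in div0.

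None of the tested relatives of the 4 genes, Actn2 and Actn4, passed the test in a comparison of the phases. Actn4, the other non-muscle alpha-actinin, was the more abundant paralog in every group, at 252 ± 17.3 TPM in div12_48_d, 231 ± 7.84 TPM in div12_48_u, 262 ± 54.7 TPM in div12, 266 ± 18.0 TPM in div0 and 244 ± 18.9 TPM in naive (SD, n = 2 each). It did not pass the test in any of the 8 comparisons by limma, with an estimate of -0.04 ± 0.14 for div12_48_d against div12 (adjusted p = 0.908) and of -0.20 ± 0.14 for div12_48_u against div0 (adjusted p = 0.368). Actn2, a muscle alpha-actinin, was at 2.84, 4.33, 2.30 and 3.91 TPM on average in div12_48_d, div12_48_u, div12 and div0, against 11.2 TPM in naive. It fell relative to naive in div0, with a change of -1.26 ± 0.28 (adjusted p = 0.00621, limma), and in div12, with a change of -1.85 ± 0.28 (adjusted p = 0.000554, limma), and passed in no other comparison. Csrp3 was below the filter. Actb, beta-actin, averaged 8850 TPM in div12_48_u and 12420 TPM in div0 and fell by 0.50 ± 0.14 between them (adjusted p = 0.0406, limma), a call lost in 7 of 16 alternatives. Of the 9 relatives planned, 3 were listed. Actn3, Fscn2, Fscn3, Csrp1, Carmil1, Carmil2 and also Actg1 were not listed under these symbols and were not analysed here.

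Other actin-linked genes were taken from 12 lists by function, with 278 genes planned, 164 in the table and 139 tested. The comparison of phases at matched division state used separate libraries: cells that had divided in their phase, div12_48_d against div12, and cells that had not, div12_48_u against div0. The div12_48_u cells had divided in Phase I, unlike div0. In divided cells limma called 14 of the 139 higher and 11 lower at an adjusted p under 0.05, and over all genes 11.9% were higher and 4.09% lower. In undivided cells it called 16 higher and 18 lower, and over all genes 10.2% were higher and 5.20% lower. The lists' median change was 0.06 in divided and 0.04 in undivided cells, against 0.08 over all genes in both. The share of the lists called higher, 10.1% and 11.5%, was thus near that of all genes, and the share called lower, 7.9% and 12.9%, was above it, which is a description and no test of the lists. With median-ratio scaling the calls were 14 higher and 21 lower in divided cells, against 10.2% and 8.55% of the 4398 genes tested under both scalings. In undivided cells they were 13 higher and 21 lower, against 7.78% and 8.80% of those genes.

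These counts changed when single libraries were left out. In divided cells the calls were 9 higher and 2 lower without div12_48_d replicate 2, 8 and 5 without div12 replicate 2, and 23 and 17 without naive replicate 1 or without naive replicate 2. The count of lower calls was 7 without div12_48_d replicate 1, without div12 replicate 1 or without either div0 replicate. In undivided cells the calls were 5 higher and 1 lower without div0 replicate 2, 6 and 3 without div0 replicate 1, 7 and 9 without div12_48_u replicate 1, and 7 and 4 without div12_48_u replicate 2. The count of lower calls was 10 without div12_48_d replicate 1 or without div12_48_d replicate 2.

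**Figure D4:**
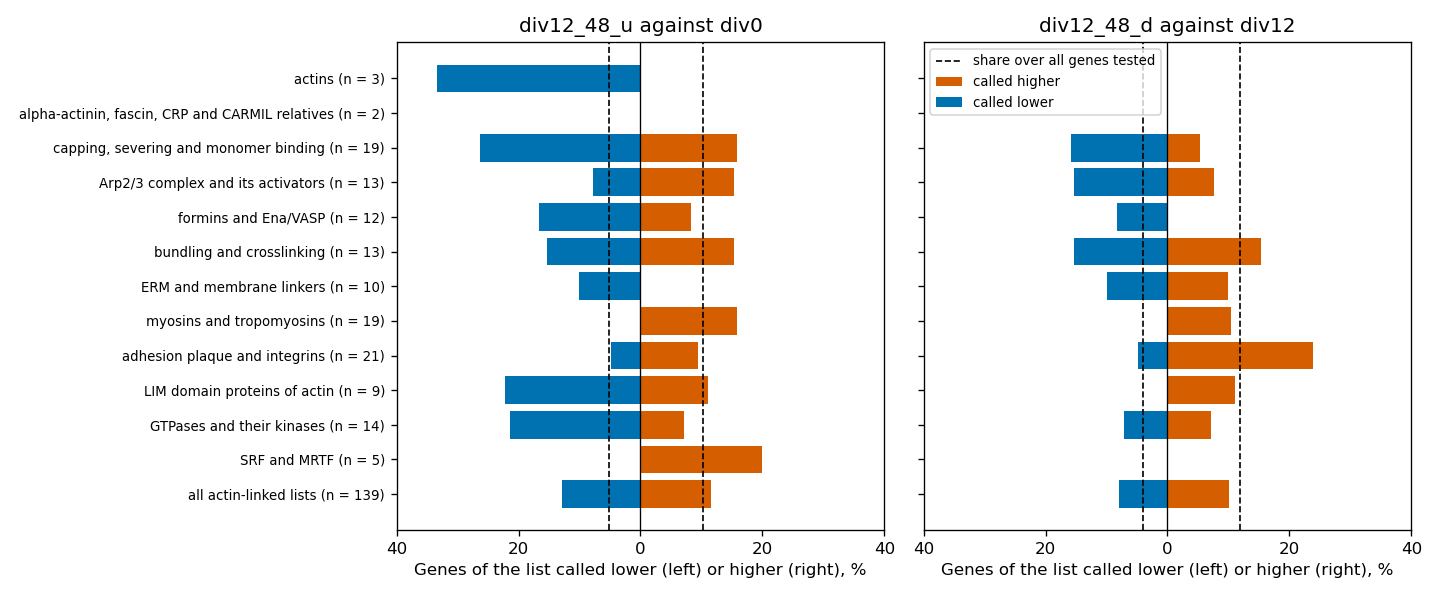
Share of the tested genes of each actin-linked list called higher (right) or lower (left), in percent, in div12_48_u against div0 and in div12_48_d against div12, with dashed lines for the shares over all 4427 genes. Over the 139 genes together, 11.5% were called higher and 12.9% lower in undivided cells, and 10.1% higher and 7.9% lower in divided cells.

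Called higher in both pairs were 9 genes, or 64.3% of the 14 in divided cells and 56.2% of the 16 in undivided cells: Baiap2, Itgav, Lmo7, Macf1, Myo1e, Pfn2, Synpo, Vav3 and Vcl. Over all genes the 259 shared calls made up 49.3% and 57.6%. Vcl, which encodes vinculin, the adhesion protein that binds alpha-actinin, measured 38.1 and 47.2 TPM in div12_48_d and 44.6 and 45.7 TPM in div12_48_u, against 19.9 and 20.1 TPM in div12 and 20.9 and 19.4 TPM in div0. Its 4 Phase II libraries were all above its 4 Phase I libraries, with changes of 1.05 ± 0.13 in divided cells (adjusted p = 0.00157, limma) and 1.13 ± 0.13 in undivided cells (adjusted p = 0.00207, limma). Both calls for Vcl held in all 16 alternatives, and resting cells held it at 43.2 ± 2.34 TPM, near its Phase II level. Actn1 differed more between the resting libraries, at 18.9 and 46.6 TPM, of which the first lay below every Phase II library.

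Lmo7, a LIM domain protein of adherens junctions, averaged 74.1 ± 10.2 TPM in div12_48_d against 14 ± 2.0 TPM in div12, a rise of 2.33 ± 0.20 (adjusted p = 0.000482, limma). In undivided cells Lmo7 averaged 33.2 ± 5.61 TPM in div12_48_u and 12.2 ± 2.68 TPM in div0, a rise of 1.38 ± 0.20 (adjusted p = 0.00527, limma). Macf1, a crosslinker of actin and microtubules, rose by 0.81 ± 0.13 in divided cells (adjusted p = 0.00525, limma) and by 1.10 ± 0.13 in undivided cells (adjusted p = 0.00258, limma). Vav3, a guanine nucleotide exchange factor, rose by 0.77 ± 0.13 (adjusted p = 0.00616, limma) and 1.03 ± 0.13 (adjusted p = 0.00295, limma). These calls for Lmo7, Macf1 and Vav3 held in all 16 alternatives. Baiap2, an adaptor that curves membranes for filopodia, reached 143 ± 19.5 TPM in div12_48_d against 43.4 ± 2.21 TPM in div12, a rise of 1.69 ± 0.14 (adjusted p = 0.000446, limma), and its rise in undivided cells was lost without div0 replicate 1 or div12_48_u replicate 2 (adjusted p = 0.0535 and 0.0508).

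Called lower in both pairs were 7 genes, or 63.6% of the 11 in divided cells and 38.9% of the 18 in undivided cells: Actr3, Cdc42, Cfl1, Flna, Fmnl3, Tmsb10 and Wdr1. Over all genes the 75 shared calls made up 41.4% and 32.6%. Flna encodes filamin A, a crosslinker of filaments into networks, and was at 264 and 292 TPM in div12_48_d and 314 and 267 TPM in div12_48_u, against 514 and 427 TPM in div12 and 525 and 511 TPM in div0. It fell in divided cells, with a change of -0.75 ± 0.11 (adjusted p = 0.00407, limma), and in undivided cells, with a change of -0.84 ± 0.11 (adjusted p = 0.00368, limma), and both calls held in all 16 alternatives. Fmnl3, a formin that elongates filaments, averaged 107 ± 17.0 TPM in div12_48_d against 224 ± 29.2 TPM in div12, a change of -1.06 ± 0.16 (adjusted p = 0.00429, limma). The call for Fmnl3 in undivided cells, -0.76 ± 0.16 (adjusted p = 0.0192, limma), was lost without div0 replicate 1, div0 replicate 2 or div12_48_u replicate 2. Cfl1, cofilin, which severs filaments, fell by 0.42 ± 0.07 in both pairs (adjusted p = 0.00668 and 0.00795, limma), and the first call was lost without div12_48_d replicate 2 and the second without either div0 replicate.

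**Figure D5:**
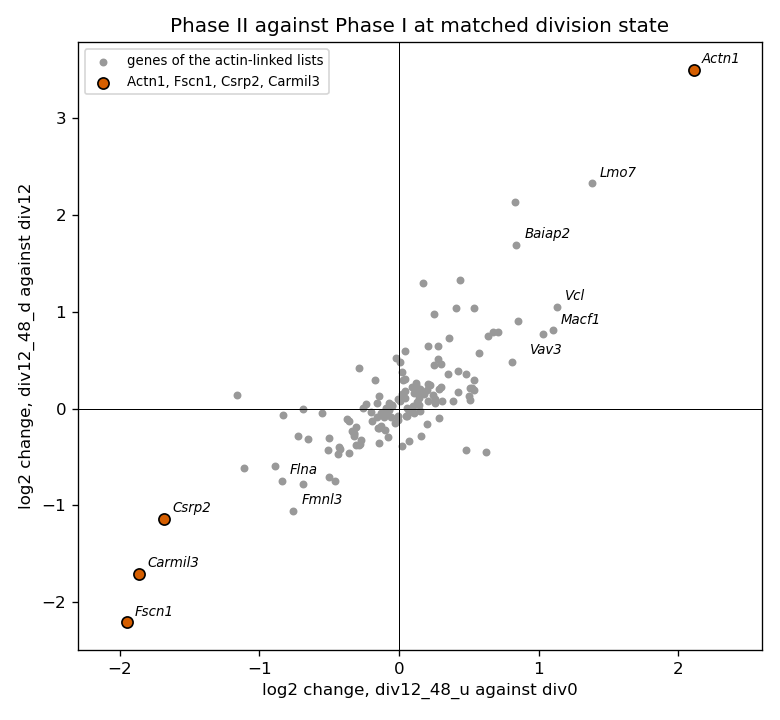
Log2 change of the genes of the actin-linked lists (grey) and of Actn1, Fscn1, Csrp2 and Carmil3 (orange) in div12_48_u against div0 (x axis) and in div12_48_d against div12 (y axis), which share no libraries. Actn1 lies at 2.11 and 3.50, above and right of Lmo7 at 1.38 and 2.33, and Fscn1, Carmil3 and Csrp2 lie in the lower left corner, where their selection placed them.

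In div12_48_u against div12, where phase and division state change together, limma called 42 of the 139 genes higher and 22 lower, against 27.7% and 13.6% of all genes, with a median of 0.17 for the lists and 0.16 for all genes. With median-ratio scaling the calls were 29 higher and 33 lower, against 18.8% and 21.1% of the 4398 genes, so the balance turned for all genes as it did for the lists. Without div12_48_u replicate 1 the lists had 23 higher calls, without div12 replicate 2 they had 25, and the lower calls were 13 without div12 replicate 1 and 12 without div12_48_u replicate 2. Myo1e, a membrane-linked class I myosin, rose by 1.39 ± 0.14 (adjusted p = 0.000275, limma). Anln, an actin-binding scaffold of the cleavage furrow, fell by 1.65 ± 0.19 (adjusted p = 0.000497, limma), and Pdlim1, a LIM domain protein that binds alpha-actinin, fell by 1.41 ± 0.16 (adjusted p = 0.00045, limma). The calls for Myo1e, Anln and Pdlim1 held in all 16 alternatives.

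Between divided and undivided Phase II cells, 13 of the 139 genes were called higher and 22 lower in div12_48_d, against 12.2% and 13.4% of all genes, with a median of -0.06 for the lists and -0.08 for all genes. Leaving out div12_48_d replicate 1 left 7 higher and 8 lower calls, leaving out div12_48_u replicate 1 left 7 lower calls, and leaving out either div0 replicate left 13. With median-ratio scaling the calls were 13 higher and 19 lower, against 15.4% and 10.6% of the 4398 genes. Pdlim1 was at 51.8 and 72.7 TPM in div12_48_d against 21.4 and 19.3 TPM in div12_48_u, a rise of 1.55 ± 0.16 (adjusted p = 0.000853, limma). Csrp2, also a LIM domain gene, was likewise higher in both div12_48_d libraries than in both div12_48_u libraries. Cd44, a hyaluronan receptor tied to actin through ERM proteins, rose by 1.34 ± 0.15 (adjusted p = 0.000998, limma), and Itgb1, the beta 1 integrin, rose by 0.94 ± 0.12 (adjusted p = 0.00202, limma). Macf1 fell by 0.95 ± 0.13 (adjusted p = 0.00236, limma) and Ptk2b, a tyrosine kinase of adhesion signalling, fell by 0.98 ± 0.13 (adjusted p = 0.00225, limma). All 5 of these calls held in all 16 alternatives.

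In Phase I, div12 against div0 had 1 of the 139 genes called higher and 7 lower, against 3.68% and 5.08% of all genes, with a median of -0.13 for the lists and -0.07 for all genes. Cd44 was the one that rose, to 244 and 230 TPM in div12 against 113 and 129 TPM in div0, by 0.97 ± 0.15 (adjusted p = 0.0151, limma). The 7 that fell were Itgb7, Ptk2b, Utrn, Macf1, Myo1e, Elk4 and Dock2, with changes of -1.01 to -0.37. No call was made among the lists without div0 replicate 1, div0 replicate 2 or div12 replicate 2. Without div12 replicate 1 there were 0 higher and 2 lower calls, the higher calls were 3 without either naive replicate, and the lower calls were 3 without div12_48_u replicate 1 and 2 without div12_48_u replicate 2. Median-ratio scaling gave 4 higher and 4 lower, against 7.32% and 4.41% of the 4398 genes.

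Against resting cells, most of the actin-linked genes that passed were lower. In div0, 15 rose and 68 fell, against 15.4% and 39.6% of all genes, and in div12, 20 rose and 76 fell, against 19.4% and 47.5%. Medians of the lists were -0.32 and -0.45, against -0.24 and -0.35 over all genes. With median-ratio scaling the counts were 28 and 55 in div0, against 23.5% and 29.1% of the 4398 genes, and 39 and 64 in div12, against 29.3% and 35.7%. Without div0 replicate 2 the div0 counts were 9 and 45, and without div0 replicate 1 the higher calls were 9. Fscn1 and Carmil3 were higher than naive, while more genes of these lists, and of all genes, fell than rose. Both were picked for their levels in these same libraries, so setting them beside the lists is a description. Markers of other cells also moved between naive and cultured libraries: T cell markers, 4 of 7 listed, summed to at most 3.25 TPM in culture, against 28.4 and 34.9 TPM in naive, and erythroid markers, 3 of 4 listed, to at most 43.5 TPM in culture, against 2674 and 3182 TPM in naive. Natural killer cell markers, 2 of 5 listed, summed to at most 1.05 TPM in culture, against 46.0 and 83.6 TPM in naive. Their part in these counts was not tested.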

How the data were processed

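RNA of splenic B cells was measured in 10 libraries, 2 in each of 5 groups, as 50 bp single-end reads from 100 ng of ribosome-depleted total RNA, per the labels' protocols. The authors deposited 1 table of TPM values for 13128 RefSeq transcripts, and each library sums to 1000000 TPM, so it keeps no read counts, the depth is unknown and no counting interval can be given. HISAT2, Salmon, featureCounts, HTSeq and DESeq2 and the build mm10 are named in the submitters' processing notes, without role or version, and the use of strand is not given in the sources used here.

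The table's 63 rows lacking a usable symbol were dropped, and 13065 were added up by symbol to 6610 genes. The 4427 genes reaching 1 TPM in 2 or more libraries were fitted as log2(TPM + 1) with limma 3.58.1 in R 4.3.3 over all 10 libraries, with group as the only term, a trend of variance with mean level, and Benjamini-Hochberg adjustment over all genes (two-sided, threshold 0.05). With 5 residual degrees of freedom, the spread in each comparison is estimated from the 5 groups together. Whether the Phase II replicates came from separate mice is not given, so p-values measure the spread between these libraries, which may be technical. The fit was also run on simulated data with independent normal noise, shuffled across genes and equal in all groups. In the real libraries, the log2 ratio of replicates had an SD over genes of 0.553 in naive, against 0.258 to 0.333 in the other groups. That run therefore does not check the p-values given here. Tables, promoter motifs and figures were made in Python 3.11.15 with numpy 2.4.6, pandas 2.3.3 and matplotlib 3.10.9. Promoter sequences are RefSeq's on GRCm38.p6, the reference version of mm10, with 3 of 4 genes matched, and transcript models are from GENCODE M21.

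The 4 genes, the gene lists and the tests were chosen with earlier results of these data known. Named genes are the 4 genes and their listed relatives, up to 3 called genes per list, direction and comparison that averaged 10 TPM or more in the higher group with non-overlapping libraries, and the 5 genes nearest to each of the 4 by Pearson r; of those the rule takes, a part is printed, chosen after their values were seen, mainly as calls that held under the alternatives, and some items taken by the rule are not reported here. Alternatives were a pseudocount of 0.1, no filter, median-ratio scaling, the replicate number as a block, the most abundant transcript of each gene, a fit of the compared groups alone and leaving out each library in turn, where the remaining library of a group takes its variability from the other groups.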

Additional observations from a re-analysis of the deposited data

Results flagged for a closer look

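Among the genes that the naming rule above took from the actin-linked lists, 3 had opposite division contrasts in Phase II and Phase I. In each phase their divided and undivided libraries did not overlap. Other genes of the lists showed the same pattern, such as Itgb2, Itga6, Fhl1 and Fmnl2, so 3 is no count over the lists. The share over all genes is not given here. The difference of the contrasts was tested with limma and did not pass the adjusted threshold for any of the 139 list genes. Ptk2, focal adhesion kinase, measured 16.3 and 15.1 TPM in div12_48_d against 27.4 and 21.5 TPM in div12_48_u, and 24.1 and 19.0 TPM in div12 against 17.1 and 17.3 TPM in div0. Its division contrast was -0.60 in Phase II and 0.30 in Phase I, a difference of -0.90 ± 0.23 (SE, adjusted p = 0.199, limma). Actr2, which encodes the Arp2 subunit of the complex that branches filaments, measured 502 and 479 TPM in div12_48_d against 524 and 511 TPM in div12_48_u, and 583 and 617 TPM in div12 against 560 and 532 TPM in div0, with a difference of -0.21 ± 0.10 (adjusted p = 0.534, limma). Itgb5, an integrin subunit, was below 1 TPM in all 8 cultured libraries, with a difference of 0.55 ± 0.68 (adjusted p = 0.918, limma).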

How the results depend on the processing

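For Actn1, Fscn1, Csrp2 and Carmil3, 12 of 12 changes between Phase II and Phase I groups kept their sign in all 16 alternatives. These genes were picked for their levels in these same libraries, so this is a description and no separate support. Csrp2 moved beyond its replicate spread with median-ratio scaling, to -1.25 in div12_48_d against div12, -0.33 in div0 against naive and 0.28 in div12 against naive. Carmil3 moved to 3.54 in div12 against naive with its most abundant transcript. Carmil3 in div12_48_u against div12 ran from -1.97 to -1.06 and Actn1 in div12_48_d against div12 from 2.94 to 4.05 when single libraries were left out.

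Counts of called genes depended more on the libraries. The 388 calls in div12 against div0 became 162 without the filter, 223 with the most abundant transcript, 677 in a fit of the compared groups alone and 247 with the replicate block, and 0 to 712 when single libraries were left out, with 0 without div0 replicate 1, div0 replicate 2 or div12 replicate 2. The 680 calls in div12_48_u against div0 became 1192 in a fit of the compared groups alone and ran from 86 (without div0 replicate 2) to 1022. Leaving out single libraries gave 335 to 1471 in div12_48_d against div12_48_u, 1212 to 2158 in div12_48_u against div12, 218 to 1006 in div12_48_d against div12 and 1573 to 2384 in div0 against naive. The difference of the division contrasts, with 0 calls, had 15 with median-ratio scaling, 3 with the replicate block, 2 with the most abundant transcript, 35 in a fit of the compared groups alone and 0 to 35 when single libraries were left out. Named genes of the lists lost 465 of 3500 calls over all alternatives and reversed none, and the causes were not tested.

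Replicate numbers were not taken as pairs: the correlation of replicate deviations ran from -0.24 to 0.20 over 10 pairs of groups, and beyond the counts above the replicate block moved no count of called genes by over 1.5 times. With 2 libraries a group and no depth, small changes of low genes cannot be told from noise.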
